A study of Mus musculus with 24 samples.

Results

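The 9 genes described here are Olfm1, Sprr1a, Kctd14, Clec2h, Tspan11, Spink4, Cst12, Kirrel3 and Inpp5j, out of 35687 genes in the monolayer and spheroid table of a study of cultured mouse ovarian surface epithelial (mOSE) cells. They were picked by name because earlier results of the same data showed high levels in untreated spheroids and lower levels in spheroids of cells pretreated with TGFB1. Those 2 differences therefore chose the genes, and for these genes they are given below as values without a test. RNA of 24 libraries, 3 in each of 8 groups, was sequenced after poly(A) selection. In the first experiment, cells of the line m1102 were untreated or received 10 ng/mL TGFB1, in attached monolayer culture or as spheroids on ultra low attachment plates. For the TGFB1 spheroids the cytokine was given for 4 days ahead of low-attachment culture, so any later time in TGFB1 is not stated. The duration of TGFB1 in monolayers is not clear from the labels. In the second experiment, m1102 cells were transduced with lentivirus, either empty (WPI vector) or driving Snail, and the labels do not give their culture format. In the third, the line mOSE_BRCA1_fl, harvested from BRCA fl/fl mice, was infected with adenovirus carrying Cre recombinase (BRCA1 ko) or GFP (BRCA1 wt), so both of its groups carry floxed alleles and a virus. The labels do not say whether the 3 libraries of a group came from separate cultures, and p-values then measure only the spread between these libraries, which may be technical.

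The ovarian surface epithelium is the single cell layer covering the ovary, a mesothelium-like tissue that opens and heals at ovulation. Cells of this layer that detach can survive as floating aggregates, which low-attachment spheroid culture imitates. TGFB1 signals through receptor kinases to SMAD transcription factors and is known for driving epithelial cells towards a mesenchymal state. The 9 genes belong to unrelated families: secreted proteins and protease inhibitors (Olfm1, Spink4, Cst12), surface proteins (Tspan11, Clec2h, Kirrel3) and intracellular proteins (Sprr1a, Kctd14, Inpp5j).

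Levels are in scaled TPM, that is the deposited TPM values (transcript abundance corrected for length and library total) as left by the authors after a factor per library, which keeps them per length and allows genes to be compared. Log2 fold changes are differences of group means of log2(scaled TPM + 1), a scale that understates changes of low genes. All genes listed, tested or not, added up to between 955433 and 1166749 per library with monolayers and spheroids. The range was 983449 to 1021026 with Snail and 796668 to 1810667 with BRCA1. Read depth is unknown, so no counting interval is given. Snai1, the gene for Snail, was at 11.2 ± 2.15 with the WPI vector and 207 ± 22.8 with the Snail construct (SD, n = 3). Brca1 was at 4.27, 12.3 and 3.66 in the libraries labelled BRCA1 wt and at 5.34, 11.1 and 4.09 in those labelled BRCA1 ko, so its summed gene level did not separate the groups. A sum over the gene does not show loss of the floxed part alone and checks nothing here, and the labels state that the deletion was checked ahead of RNA collection. Of the epithelial keratins, Krt8 was at most 0.406 in every monolayer and spheroid library. Krt7 was at 329 ± 37.8 in untreated monolayers and 2.69 ± 0.740 in untreated spheroids. A list of 13 ovarian surface and mesothelial markers, which holds both keratins, summed to 1869 to 2010 in untreated monolayers and 328 to 585 in untreated spheroids. In the mOSE_BRCA1_fl line, whose values were normalized separately, Krt8 was at 197 ± 79.1 in BRCA1 wt and 67.7 ± 11.5 in BRCA1 ko.

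Untreated spheroid 3 stood apart from its group, and TGFB1 spheroid 3 was the TGFB1 spheroid most like the untreated ones. Over 13509 genes, untreated spheroids 1 and 2 correlated at r = 0.991 with each other and at 0.970 with untreated spheroid 3. TGFB1 spheroids 1 and 2 correlated at 0.969 with each other. TGFB1 spheroid 3 correlated most with its own group (0.965 with TGFB1 spheroid 1 and 0.977 with TGFB1 spheroid 2) and did not stand apart within it. Its correlation with untreated spheroid 1 was 0.946, where those of TGFB1 spheroids 1 and 2 with that same library were 0.904 and 0.896. Of genes outside the 9, 88 were at least 8-fold lower in TGFB1 spheroids 1 and 2 than in untreated spheroids 1 and 2. In TGFB1 spheroid 3 their median level was 30.9% of that in untreated spheroids 1 and 2 (quartiles 25.5% and 36.9%), and in untreated spheroid 3 it was 47.3% (quartiles 19.3% and 91.7%). Another 180 genes were at least 8-fold higher in TGFB1 spheroids 1 and 2, and in TGFB1 spheroid 3 their median level was 66.7% of that high level, against 1.58% in untreated spheroid 3. Values of the 9 genes are therefore given per library, and with and without the spheroid libraries numbered 3 where they decide a value.

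All 9 are protein-coding genes and lie, on GRCm38 with GENCODE M21 annotation, on 7 chromosomes. Tspan11 (chr6:127887589-127953977) and Clec2h (chr6:128662385-128677374) are 0.708 Mb apart, both on the plus strand. Olfm1 (chr2:28192992-28230736) and Cst12 (chr2:148789361-148793546) share a chromosome but lie 121 Mb apart. The others are Sprr1a (chr3:92483952-92485895, minus strand), Spink4 (chr4:40920052-40931395), Kctd14 (chr7:97451323-97459557), Kirrel3 (chr9:34485894-35036716) and Inpp5j (chr11:3494375-3504821, minus strand). They range from Sprr1a, with 2 exons over 1944 bases and a protein of 144 residues, to Kirrel3, whose longest transcript has 17 exons in a gene of 550823 bases.

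Promoters are shown for Sprr1a and Clec2h, the genes with a match to a loose form of the AP-1 motif. They are among the 5 found in the RefSeq promoter table (GRCm38.p6, with 6 starts, since Olfm1 has 2). The 250 bases before the start are chr3:92485882-92486131 on the minus strand for Sprr1a and chr6:128662135-128662384 on the plus strand for Clec2h. Capitals mark TGANTCA, a loose form of the AP-1 motif in which N is any base, and TATAAA, searched on both strands.
Sprr1a: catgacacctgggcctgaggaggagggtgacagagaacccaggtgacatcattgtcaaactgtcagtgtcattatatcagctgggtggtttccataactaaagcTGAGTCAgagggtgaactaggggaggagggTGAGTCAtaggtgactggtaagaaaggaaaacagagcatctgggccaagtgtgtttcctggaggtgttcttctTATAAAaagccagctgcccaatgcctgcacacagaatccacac
Clec2h: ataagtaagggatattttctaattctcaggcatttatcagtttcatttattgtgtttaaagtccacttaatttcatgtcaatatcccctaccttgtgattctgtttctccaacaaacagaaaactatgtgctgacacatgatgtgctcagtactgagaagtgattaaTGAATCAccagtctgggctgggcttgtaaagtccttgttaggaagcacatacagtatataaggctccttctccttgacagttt
The Sprr1a promoter held TGAGTCA at 146 and 116 bases before the start and TATAAA at 43, and the Clec2h promoter held TGAATCA at 83. Among 32851 promoters of the table, 6.75% held TGANTCA and 12.4% held TATAAA, and the motifs found do not overlap one another. The NR5A motif CAAGGTCA (1.33% of all promoters), the SMAD palindrome GTCTAGAC (0.167%) and the hypoxia element ACGTG (16.6%) were not found in these 6 windows. The Sprr1a and Clec2h windows held no CpG, while the observed over expected CpG ratio was 0.115 for Cst12, 0.221 for Tspan11 and 0.830 and 1.08 for the Olfm1 starts, against a median of 0.373 over all promoters. A match is a run of letters and does not show that a factor binds.

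In untreated spheroids all 9 genes were higher than in untreated monolayers in every library, and 7 of the 9 followed the pattern in full. The full pattern meant that all 3 untreated spheroids lay above all 3 untreated monolayers and above all 3 TGFB1 spheroids, with at least a 2-fold change on the log scale in both comparisons. Olfm1, Kctd14, Clec2h, Spink4, Cst12, Kirrel3 and Inpp5j met it with all libraries in place. The Olfm1 decrease with TGFB1 fell to -0.957 on the log2 scale, under 2-fold, in an alternative setting. Sprr1a and Tspan11 did not, because TGFB1 spheroid 3 was above untreated spheroid 3 for both, although both mean changes exceeded 2-fold. Of 13509 genes, 2.35% met the same definition. By the test rather than by separation, 2.84% changed at least 2-fold in both directions. Since these differences chose the genes, nothing is read from those shares. All monolayer titles, and no spheroid title, are marked as re-analysed, so the effect of culture and that of another source of libraries cannot be told apart. One earlier sample is cited for both untreated monolayer 1 and untreated monolayer 2, although their values differ. In bulk RNA, fewer cells of a type and less RNA per cell cannot be told apart either.

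**Figure D1:**
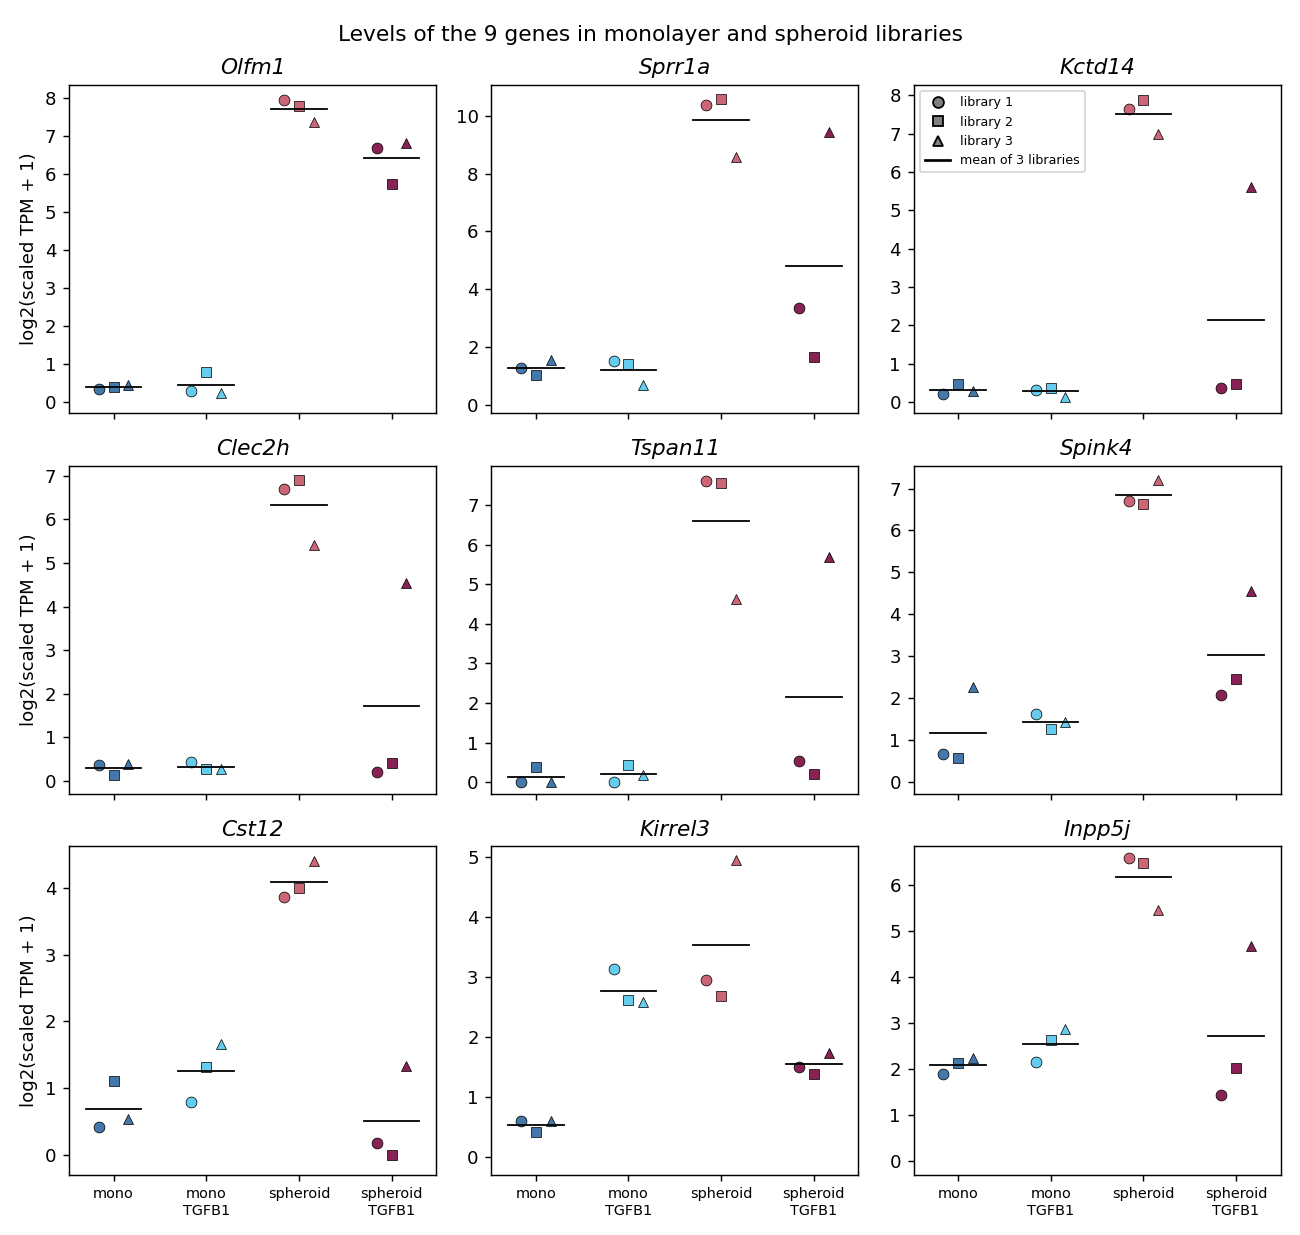
Level of each gene, as log2(scaled TPM + 1) on its own linear y axis, in untreated and TGFB1 monolayers (mono) and untreated and TGFB1 spheroids of line m1102; symbols are the 3 libraries of a group and bars their means. Untreated spheroids were the group with the highest mean for all 9 genes, though for Kirrel3 libraries 1 and 2 of that group lay within the TGFB1 monolayers. Olfm1 stayed high in TGFB1 spheroids, and TGFB1 spheroid 3 (triangle) lay above libraries 1 and 2 for every gene.

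Among the secreted proteins, Olfm1 departed from the rest by the level left under TGFB1. Olfm1 encodes noelin, an olfactomedin-domain glycoprotein best known from the nervous system. Its level was 0.261, 0.326 and 0.352 in untreated monolayers, 249, 220.0 and 166 in untreated spheroids, and 102, 52.3 and 113 in TGFB1 spheroids. Every TGFB1 spheroid was thus far above every monolayer and below every untreated spheroid. The mean was 676-fold that of monolayers in untreated spheroids, with a log2 difference of 7.32, and TGFB1 spheroids kept 42.0% of the untreated spheroid mean (log2 difference -1.30). By size of the spheroid increase Olfm1 ranked 5 among 13509 genes, and by size of the decrease under TGFB1 it ranked 490.

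Spink4 encodes a Kazal-type serine protease inhibitor known from intestinal goblet cells. Its level was 0.569, 0.484 and 3.80 in untreated monolayers, 104, 98.7 and 148 in untreated spheroids, and 3.19, 4.44 and 22.4 in TGFB1 spheroids. Spheroid groups did not overlap, while TGFB1 spheroid 1 was below untreated monolayer 3. The log2 differences were 5.69 for spheroid culture and -3.84 for TGFB1 in spheroids. Cst12 encodes a member of the cystatins, a family named for inhibitors of cysteine proteases. It was at 0.341, 1.17 and 0.457 in untreated monolayers, 13.5, 14.96 and 20.2 in untreated spheroids, and 0.136, 0 and 1.51 in TGFB1 spheroids. It was the lowest of the 9 in TGFB1 spheroids, at 3.38% of the untreated spheroid mean, and there it overlapped the untreated monolayers. Its log2 differences, 3.40 and -3.58, were close in size and opposite in sign.

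Tspan11 encodes a tetraspanin, a membrane protein with 4 membrane-spanning segments that organises other membrane proteins. It was listed at 0 in untreated monolayers 1 and 3 and at 0.303 in the other, and was at 195, 188 and 23.7 in untreated spheroids. In TGFB1 spheroids it was at 0.442, 0.158 and 50.1. The first pair of TGFB1 spheroids was near the monolayer level, and library 3 was above untreated spheroid 3, so the spheroid groups overlapped. The log2 differences were 6.47 and -4.46.

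Clec2h encodes Clr-f, a C-type lectin-like surface protein of a family whose members bind NKR-P1 receptors of natural killer cells. It was at 0.299, 0.108 and 0.318 in untreated monolayers, 103, 118 and 41.7 in untreated spheroids, and 0.161, 0.335 and 22.4 in TGFB1 spheroids. TGFB1 spheroids 1 and 2 were within or near the monolayer range and the third was below all untreated spheroids. The log2 differences were 6.03 and -4.61.

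Kirrel3 encodes an immunoglobulin-superfamily adhesion molecule related to nephrin. It was at 0.517, 0.329 and 0.516 in untreated monolayers, 6.67, 5.42 and 29.8 in untreated spheroids, and 1.83, 1.61 and 2.33 in TGFB1 spheroids. No groups of these 3 overlapped, but untreated spheroid 3 was at 494% of the mean of libraries 1 and 2. The log2 differences of 2.99 and -1.98 became 2.27 and -1.27 without that library, so the direction and the 2-fold size remained in both.

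Sprr1a, a small proline-rich precursor of the cornified envelope of stratified epithelia, reached the highest level of the 9. It was at 1.39, 1.02 and 1.95 in untreated monolayers, 1342, 1523 and 381 in untreated spheroids, and 9.12, 2.11 and 687 in TGFB1 spheroids. By mean level in untreated spheroids it ranked 129 among the 13509 genes, and its spheroid increase (log2 difference 8.57) ranked 1. In TGFB1 spheroids 1 and 2 it was above monolayers, at under 1% of the untreated spheroid mean, while library 3 was above untreated spheroid 3, and the mean difference for TGFB1 was -5.05.

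Kctd14 encodes a protein with the tetramerisation (BTB) domain of the KCTD family. It was at 0.144, 0.390 and 0.219 in untreated monolayers, 199, 235 and 127 in untreated spheroids, and 0.289, 0.373 and 48.0 in TGFB1 spheroids. TGFB1 spheroids 1 and 2 lay inside the monolayer range, and library 3 was between monolayers and untreated spheroids. Its log2 difference for TGFB1 in spheroids, -5.36, ranked 1 among decreases, followed by Sprr1a at 2, Clec2h at 3 and Tspan11 at 4. Inpp5j encodes an inositol polyphosphate 5-phosphatase that acts on phosphoinositides at the membrane. It was at 2.70, 3.41 and 3.72 in untreated monolayers, 95.4, 88.6 and 42.9 in untreated spheroids, and 1.69, 3.06 and 24.7 in TGFB1 spheroids. It was the member with the highest untreated monolayer mean, 3.28 ± 0.523, and its log2 differences were 4.09 and -3.47.

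The level left in TGFB1 spheroids depended on the library. In libraries 1 and 2, Sprr1a, Kctd14, Clec2h, Tspan11, Spink4 and Inpp5j were at 0.117% (Tspan11, library 2) to 4.04% (Inpp5j, library 2) of the mean of the 3 untreated spheroids. Cst12 was at 0.836% and 0%, Kirrel3 at 13.1% and 11.5%, and Olfm1 at 48.1% and 24.7%. In library 3 the share was 9.30% for Cst12, 16.7% for Kirrel3 and 19.2% for Spink4. It was 25.7% for Kctd14, 25.6% for Clec2h, 32.7% for Inpp5j, 37.0% for Tspan11, 53.2% for Olfm1 and 63.5% for Sprr1a. Set against untreated spheroids 1 and 2 alone, library 3 held 10.6% (Cst12) to 48.0% (Olfm1), beside the median of 30.9% over the 88 other lowered genes. Among the members that were themselves at least 8-fold lower in libraries 1 and 2, Sprr1a (47.9%) was above the upper quartile of those genes, Tspan11 (26.2%) and Inpp5j (26.9%) were between the quartiles, and Kctd14 (22.1%), Clec2h (20.3%), Spink4 (22.1%) and Cst12 were below the lower one. Olfm1 and Kirrel3 (38.6% in library 3) were lowered only 3.04-fold and 3.51-fold in libraries 1 and 2 and are not set against those genes.

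**Figure D2:**
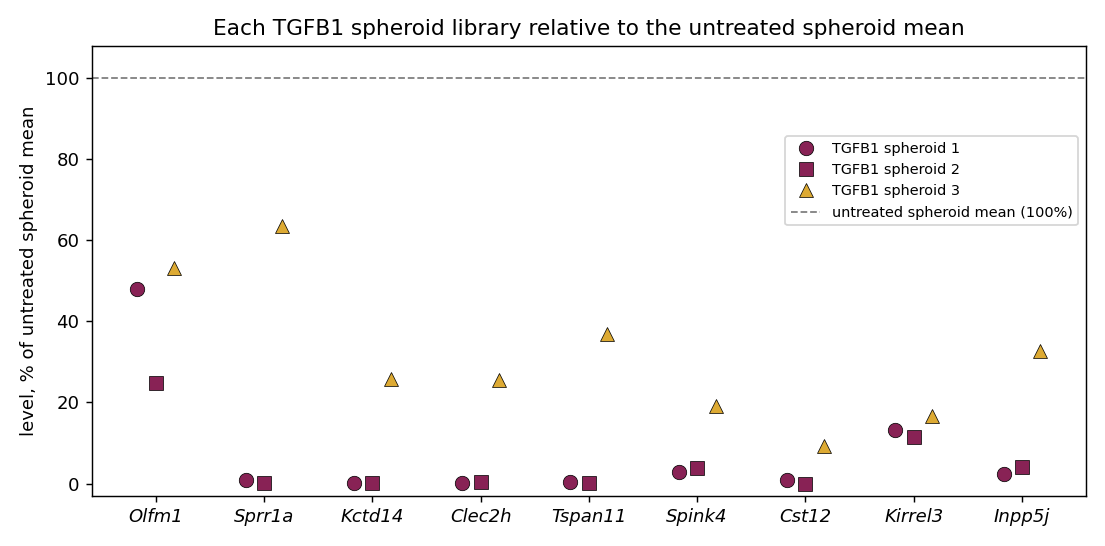
Level of each gene in the 3 TGFB1 spheroid libraries as a percentage of the mean of the 3 untreated spheroids (dashed line at 100%), on a linear axis. Library 3 was the highest for all 9 genes, from 9.30% for Cst12 to 63.5% for Sprr1a, and Olfm1 was the gene with all 3 libraries above 20%.

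Leaving out TGFB1 spheroid 3 made the log2 difference for TGFB1 in spheroids -7.36 for Sprr1a, -7.09 for Kctd14, -6.23 for Tspan11, -6.02 for Clec2h and -4.45 for Inpp5j. With both spheroid libraries numbered 3 left out, Sprr1a reached -7.99, Kctd14 -7.35, Tspan11 -7.22, Clec2h -6.48, Inpp5j -4.81 and Olfm1 -1.67. Over all alternative settings the smallest decreases were -0.957 for Olfm1, -2.82 for Inpp5j, -3.46 for Sprr1a, -3.50 for Tspan11, -3.85 for Clec2h and -4.47 for Kctd14. For Olfm1 that is under 2-fold. The direction was the same for all of these genes with and without the libraries. Untreated spheroid 3 was itself low for Tspan11 (12.4% of the mean of libraries 1 and 2), Sprr1a (26.6%), Clec2h (37.9%), Inpp5j (46.6%), Kctd14 (58.4%) and Olfm1 (70.8%). It was high for Cst12 (142%), Spink4 (146%) and Kirrel3. The part of these libraries in the differences beyond these values was not tested.

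Spheroids and monolayers that had both received TGFB1 were also compared, as values only, because the TGFB1 spheroids helped to choose the genes. Olfm1 remained 5.98 higher on the log2 scale in spheroids, with no overlap between the groups. For Sprr1a the difference was 3.60 and fell to 1.29 without TGFB1 spheroid 3. Without that library Kctd14 (1.87) came to 0.14, Tspan11 (1.94) to 0.17, Clec2h (1.40) to -0.014 and Inpp5j (0.16) to -0.82. Spink4 was 1.59 higher, and 0.82 without that library. Cst12 and Kirrel3 were lower in TGFB1 spheroids than in TGFB1 monolayers, by differences of -0.76 and -1.23 that became -1.17 and -1.33. Of all genes, 51.9% were called in that comparison (25.3% higher and 26.5% lower in spheroids), and nothing is read from it for these genes. Olfm1 was thus the one gene of the 9 far above monolayers in each TGFB1 spheroid library.

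In monolayers, TGFB1 raised Kirrel3 and the other 8 genes did not pass the test. Kirrel3 was at 0.517, 0.329 and 0.516 without TGFB1 and at 7.71, 5.11 and 4.98 with it, so every TGFB1 library was above every untreated one. The log2 fold change was 2.23 ± 0.46 (SE; limma, Benjamini-Hochberg adjusted p = 0.00841), and over 11 alternative settings it was 2.06 to 3.44 with adjusted p from 0.000751 to 0.0377. Its TGFB1 monolayers were close to untreated spheroids 1 and 2 (6.67 and 5.42) and above all TGFB1 spheroids. Among all genes tested, 16.9% were called (9.12% higher and 7.79% lower). Olfm1, Kctd14, Clec2h and Tspan11 were below 1 in every monolayer and entered the test only through the spheroids. At such levels the log scale leaves little room for a call, so 1 of 9 is not read against that share. This comparison shares the untreated monolayers with the one that chose the genes.

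The other genes stayed low in TGFB1 monolayers. Cst12 was at 0.740, 1.49 and 2.17 (log2 fold change 0.57 ± 0.35, adjusted p = 0.310, limma), and untreated and TGFB1 values overlapped. Inpp5j was at 3.43, 5.18 and 6.29 (0.46 ± 0.66, adjusted p = 0.700, limma). Spink4 was at 2.07, 1.39 and 1.68, Sprr1a at 1.86, 1.64 and 0.596, and Olfm1 at 0.227, 0.714 and 0.184. Kctd14, Clec2h and Tspan11 were at most 0.352 in any TGFB1 monolayer. The spread of the TGFB1 spheroids enters the pooled error (SE 1.496 for Sprr1a). In a fit of the 6 monolayer libraries alone these 8 genes were not called either, with the lowest adjusted p at 0.139 for Inpp5j and 0.170 for Cst12 (limma).

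With Snail overexpression none of the 9 genes was called by limma, beside 1.72% of all genes tested (210 of 12240, with 0.572% higher and 1.14% lower, and 1813 at an unadjusted p under 0.05). Only Sprr1a, Spink4 and Inpp5j reached a scaled TPM of 1 in at least 3 of the 6 libraries and were tested. Inpp5j was at 2.50, 2.78 and 4.29 with the WPI vector and at 1.35, 1.68 and 1.65 with Snail. All Snail libraries were below all vector libraries, but the log2 fold change of -0.69 ± 0.18 had an adjusted p of 0.126 (limma). Its unadjusted p of 0.00558 made it the 1 member of the 3 tested under 0.05. In the authors' deposited table the Inpp5j coefficient was -0.99 on the log2 scale with a q-value of 0.00688. Sprr1a was at 1.86, 2.96 and 0.779 with the vector and 0.888, 0.576 and 1.64 with Snail (-0.45 ± 0.32, adjusted p = 0.597, limma), and the groups overlapped. Spink4 overlapped too (-0.018 ± 0.33, adjusted p = 0.990, limma). Tspan11 was listed at 0 in all 6 libraries, and Olfm1, Kctd14, Clec2h and Kirrel3 were below 1 in each of them. Cst12 reached 1.29 at most.

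In the mOSE_BRCA1_fl line the highest member levels were those of Cst12 and Inpp5j, and Inpp5j was lower in BRCA1 ko libraries. Inpp5j was at 23.0, 35.5 and 33.7 in BRCA1 wt and at 15.3, 13.0 and 15.7 in BRCA1 ko, with no overlap. The log2 fold change was -0.998 ± 0.25 (adjusted p = 0.0433, limma), and this was the 1 member called of 4 tested, beside 14.3% of all genes (9.04% higher and 5.27% lower). The call was lost in 8 of 10 alternatives, with adjusted p between 0.00845 and 0.393. With libraries scaled to equal sums the change was -0.49 (adjusted p = 0.393), and the median of all genes moved from 0.17 to 0.63. Relative to that median Inpp5j was at -1.17 as deposited and at -1.12 with equal sums. The authors' deposited table gave a log2 coefficient of -1.38 with a q-value of 0.000663.

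Sprr1a was at 0.723, 0.388 and 1.29 in BRCA1 wt and at 1.87, 1.83 and 2.05 in BRCA1 ko, again with no overlap. The log2 fold change of 0.73 ± 0.24 did not pass the test (adjusted p = 0.0713, limma). It passed with equal sums (1.08, adjusted p = 0.0295) and without BRCA1 wt 2 (0.55, adjusted p = 0.0494), and relative to the median of all genes it was 0.56 as deposited and 0.45 with equal sums. Cst12 was at 18.5, 4.94 and 39.5 in BRCA1 wt and 23.2, 37.4 and 20.5 in BRCA1 ko, and the groups overlapped (0.70 ± 0.66, adjusted p = 0.429, limma). Spink4 ranged from 0 in BRCA1 wt 2 to 6.32 in BRCA1 ko 2 and did not pass (0.89 ± 0.60, adjusted p = 0.282, limma). Kctd14 was below the level needed for testing, at 0.221, 0.511 and 0.165 in BRCA1 wt and 1.60, 2.13 and 0.696 in BRCA1 ko. The authors' deposited table gave it a log2 coefficient of 1.95 and a q-value of 0.0120. Olfm1 reached 2.25 in 1 BRCA1 ko library and was below 1 elsewhere, and Clec2h, Tspan11 and Kirrel3 were at most 0.334.

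**Figure D3:**
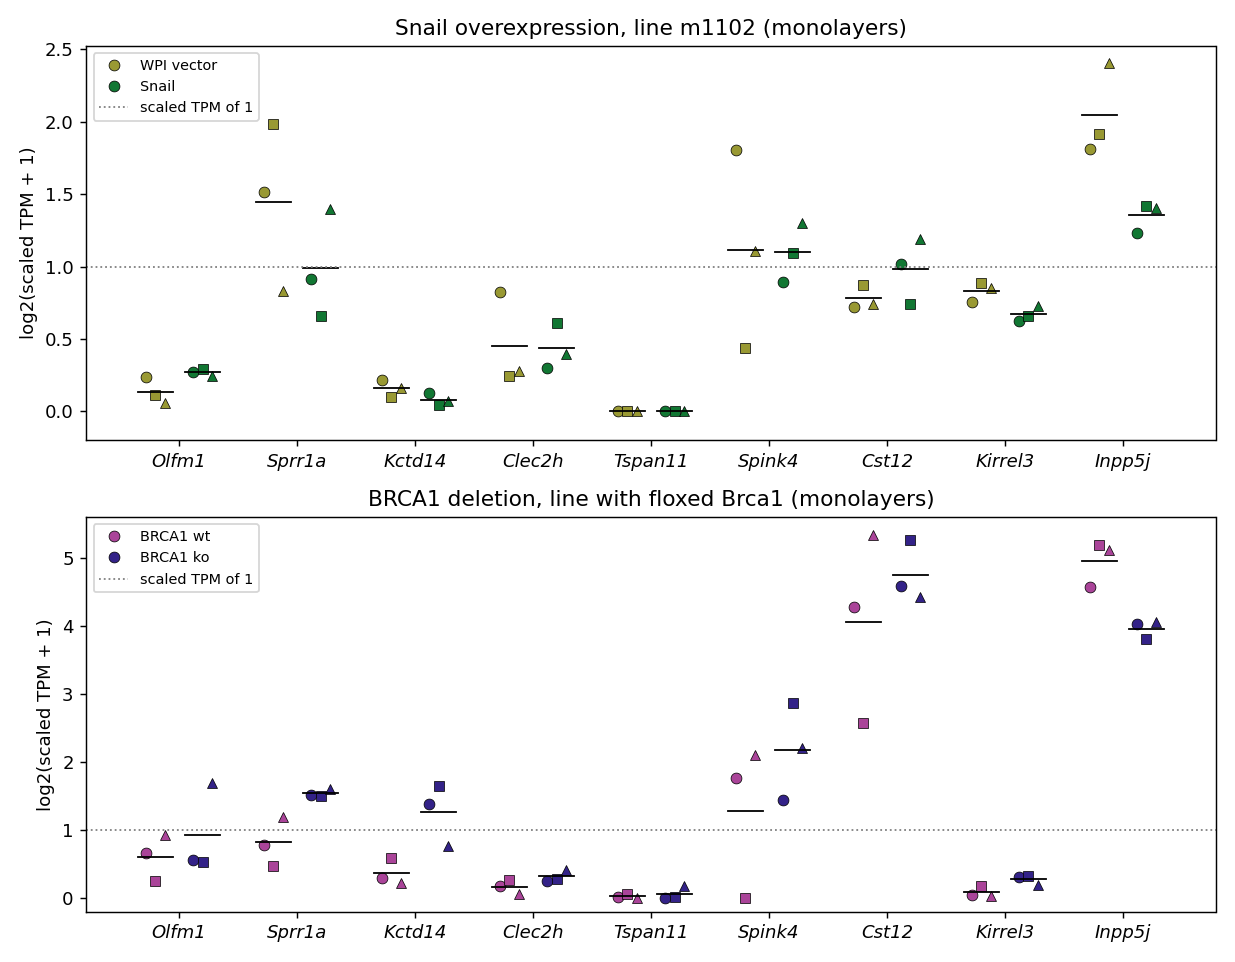
Levels of the 9 genes as log2(scaled TPM + 1) in the Snail experiment (top) and the BRCA1 experiment (bottom), 3 libraries a group with their mean as a bar; symbols are library numbers (circle 1, square 2, triangle 3) and the dotted line marks a scaled TPM of 1. Inpp5j was lower in all Snail than in all WPI vector libraries and lower in all BRCA1 ko than in all BRCA1 wt libraries, and most other members stayed near or below a scaled TPM of 1. The panel titles say monolayers, but the labels do not give the culture format of the Snail experiment.

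Relatives of each gene were taken by family name. In the olfactomedins, Olfm2 moved opposite to Olfm1 under TGFB1. Olfm2 was at 0.429, 0.116 and 0.525 in untreated spheroids and at 112, 82.7 and 51.7 in TGFB1 spheroids, with no overlap (log2 fold change 5.88 ± 0.40, adjusted p = 2.93e-06, limma). All 3 tested olfactomedin relatives were called higher with TGFB1 in spheroids, where 35.6% of all genes were called (18.8% higher and 16.8% lower). In untreated spheroids against monolayers, a comparison with 55.2% of genes called (27.6% up and 27.7% down), a single relative passed, Olfml2b (-2.63 ± 0.22).

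In the cornified envelope list, 4 of 6 tested genes rose in untreated spheroids and none was called with TGFB1 in spheroids. Sprr2h, listed at 0 in untreated monolayers, was at 77.5, 114 and 8.33 in untreated spheroids and at 2.08, 1.93 and 91.3 in TGFB1 spheroids. Sprr2g was at 71.8, 77.7 and 8.53 and then at 0.845, 0.470 and 56.8. Both show the order of libraries seen for Sprr1a, with TGFB1 spheroid 3 above untreated spheroid 3. Sprr2e rose too (3.01 ± 0.94, adjusted p = 0.0183, limma). The spheroid changes of Sprr2h and Sprr2g were 5.45 ± 1.21 (adjusted p = 0.00288) and 4.93 ± 1.21 (adjusted p = 0.00505, limma), while with TGFB1 neither passed (adjusted p = 0.179 and 0.0927, limma). Sprr2 genes are close copies of each other, so the split of reads among them is uncertain. Ivl, the envelope protein involucrin, rose by 2.07 ± 0.31 and was at 163, 124 and 130 in TGFB1 spheroids against 161, 196 and 118 in untreated ones. Markers of stratified epithelium, which include Krt5, Krt14 and Trp63, summed to 0.111 to 0.599 in untreated spheroids and 0.762 to 2.91 in TGFB1 spheroids, and Krt5 and Trp63 were listed at 0 in the former.

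Of 5 tested genes of the Clec2 and Klrb1 families, Klrb1a, a gene of the NKR-P1 receptors, was called higher in untreated spheroids (5.96 ± 0.42, adjusted p = 1.14e-06, limma). Unlike Clec2h it was at 91.1, 19.1 and 40.5 in TGFB1 spheroids, overlapping the 71.5, 80.2 and 114 of untreated ones (-1.05 ± 0.42, adjusted p = 0.0727, limma). Clec2d fell with TGFB1 in spheroids (-2.13 ± 0.46, adjusted p = 0.00480, limma) and Clec2e was lower in untreated spheroids (-2.57 ± 0.31). Of 24 tested tetraspanins 10 were called higher and 6 lower in untreated spheroids, and 8 higher and 4 lower with TGFB1 in spheroids. Cd53, a leukocyte tetraspanin, changed in the directions of Tspan11 (4.66 ± 0.50, then -2.29 ± 0.50, adjusted p = 0.00524, limma), as did Tspan8 (3.14 ± 0.29, then -1.96 ± 0.29) and Tspan32 (1.19 ± 0.28, then -1.95 ± 0.28). Others went otherwise. Cd9 rose in untreated spheroids (2.38 ± 0.15) and rose again with TGFB1 (1.09 ± 0.15, adjusted p = 0.000343, limma), as did Tspan7 (1.01 ± 0.26, then 1.33 ± 0.26). Tspan12 rose by 4.55 ± 0.19 in untreated spheroids and was not called with TGFB1 (-0.41 ± 0.19, adjusted p = 0.116, limma). Upk1b (-5.84 ± 0.61) and Tspan9 (-1.93 ± 0.13) fell in spheroids.

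Of 4 tested cystatins, Cst8 was called higher in untreated spheroids (2.15 ± 0.61, adjusted p = 0.0112, limma), and Cst8, Cst3 and Cstl1 were called lower with TGFB1 in spheroids. Cst11 rose in BRCA1 ko libraries, from 3.15, 1.13 and 3.90 in BRCA1 wt to 35.5, 49.2 and 28.1 (3.42 ± 0.38, adjusted p = 0.00363, limma). Of 15 KCTD genes 5 were higher and 5 lower in untreated spheroids, led by Kctd5 (-2.16 ± 0.09) and Kctd11 (1.92 ± 0.39). With TGFB1 in spheroids 4 were higher and 4 lower, with changes between -0.72 and 0.87 among those called. Of 9 inositol 5-phosphatases 2 were higher and 1 lower in untreated spheroids, and 1 was higher with TGFB1. Among them Ocrl rose by 1.13 ± 0.19 in untreated spheroids. Kirrel fell in untreated spheroids (-1.62 ± 0.11) where Kirrel3 was higher, and Spink10, the one tested relative of Spink4, was not called.

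Some neighbours on the chromosome moved with the members. Cst8, an epididymal cystatin gene 5.239 kb from Cst12, was at 24.02, 18.5 and 7.91 in untreated spheroids and 0.760, 0.0937 and 6.61 in TGFB1 spheroids (-2.74 ± 0.61, adjusted p = 0.00555, limma). Klrb1a, 38.9 kb from Clec2h, shared the rise in untreated spheroids but was not called lower with TGFB1 (-1.05 ± 0.42, adjusted p = 0.0727, limma). Pla2g3, a secreted phospholipase gene that overlaps Inpp5j on the opposite strand, was at 4.66, 4.06 and 1.54 in untreated and 0.111, 0.0657 and 0.924 in TGFB1 spheroids. It rose by 1.98 ± 0.31 with spheroid culture (adjusted p = 0.000268) and fell by 1.67 with TGFB1 (SE 0.31, adjusted p = 0.00201, limma). Whether counting used strand is not given in the sources used here, so reads of Inpp5j and Pla2g3 cannot be told apart with certainty. That applies where exons overlap, but overlap was taken from whole gene spans and exons were not checked. By span Tspan11 also overlaps the antisense gene Gm15870 and Kirrel3 overlaps Kirrel3os, with the same limit.

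Other neighbours did not share the pattern or showed it weakly. Tspan9, 7.42 kb from Tspan11, was at 112 ± 7.68 in untreated monolayers and 28.5 ± 1.72 in untreated spheroids. Bag1, 5.003 kb from Spink4, rose by 1.59 ± 0.10 in untreated spheroids and changed by -0.77 ± 0.10 with TGFB1. Ints4, 21.4 kb from Kctd14, rose by 1.42 ± 0.17 and changed by -0.9996 ± 0.17. Sprr3, Sprr4 and Fcnb, next to Sprr1a and Olfm1, were listed at 0 in all spheroids.

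**Figure D4:**
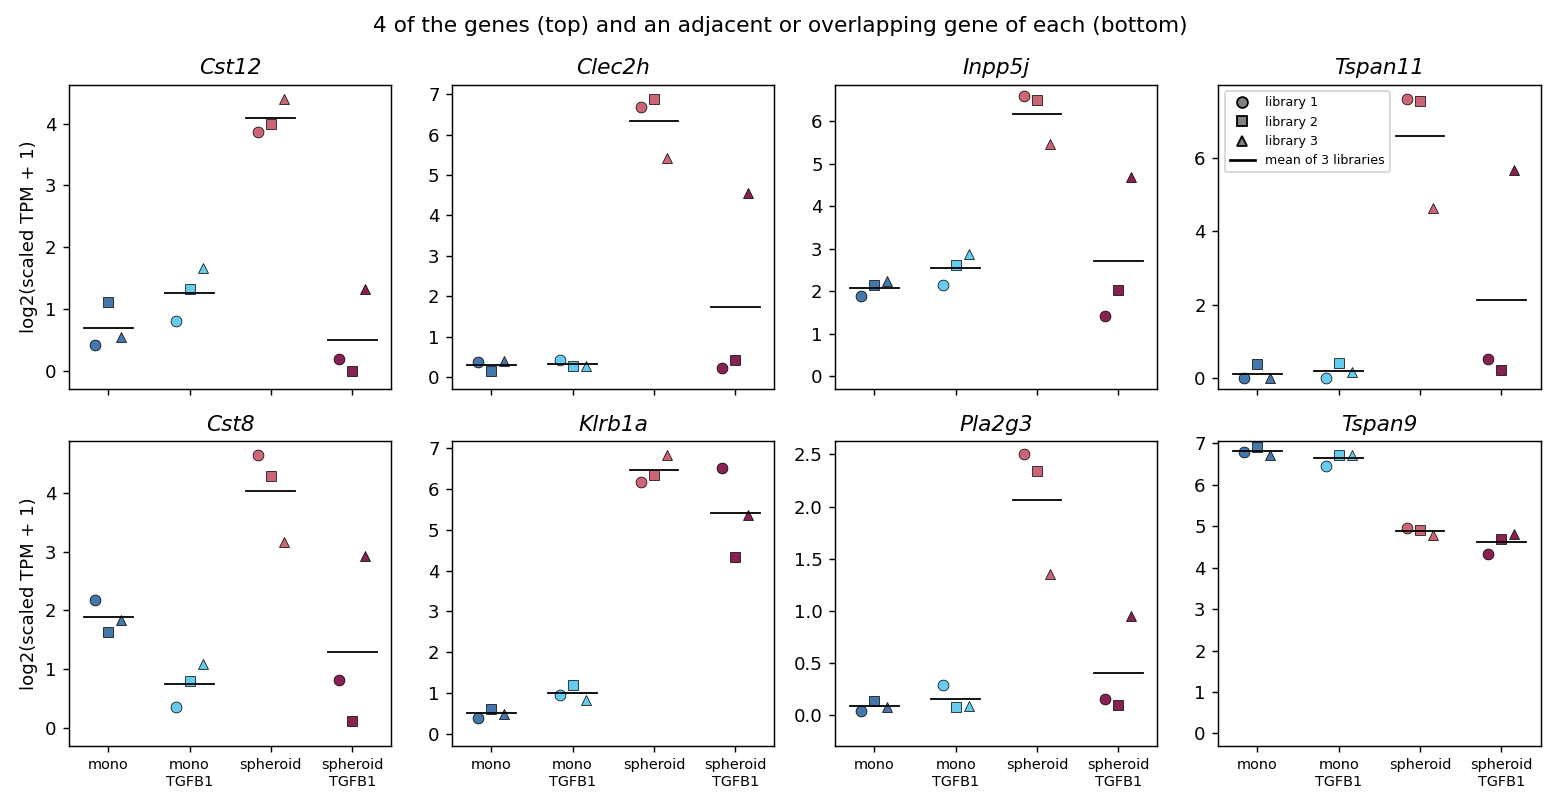
Levels of 4 of the genes (top) and of a gene adjacent to or overlapping each (bottom) as log2(scaled TPM + 1), each on its own axis, in the 4 monolayer and spheroid groups with 3 libraries each and bars at their means. Cst8 and Pla2g3 were high in untreated spheroids and lower in TGFB1 spheroids, Klrb1a stayed high in TGFB1 spheroids and Tspan9 was lower in both spheroid groups than in monolayers.

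Over the 12 monolayer and spheroid libraries, Kctd14 and Clec2h had the most alike profiles of the 9 (r = 0.997 on the log scale), and Kirrel3 was the least like the others (r = 0.411 with Olfm1 to 0.735 with Cst12). These correlations are descriptions over libraries that share groups, and the genes were chosen for that shared pattern. Over the 6 monolayers alone, where levels are near 0, r for Kctd14 and Clec2h was -0.466. Outside the 9, the genes most like their mean standardised profile were Cnp (r = 0.997), Sncb (0.992), Naip1 (0.989), Zg16 (0.989), Pf4 (0.988) and 9130208D14Rik (0.988). Cnp was at 7.59 ± 0.483 in untreated monolayers, 26.4 ± 1.74 in untreated spheroids and 11.4 ± 4.22 in TGFB1 spheroids. Zg16 was at 0.126 ± 0.132, 22.6 ± 4.10 and 2.57 ± 3.83. The single closest gene was Tmem51 for Olfm1 (0.997), Cyp11a1 for Sprr1a (0.993), Pf4 for Kctd14 (0.995), Gm826 for Clec2h (0.997), AC121359.3 for Tspan11 (0.998), Bcl2l1 for Spink4 (0.988), Pcdhb10 for Cst12 (0.977), Zfp74 for Kirrel3 (0.937) and Gstm6 for Inpp5j (0.993).

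Most tested markers of granulosa, theca and steroidogenic cells moved in the same directions as the 9 genes. Of 12 listed, 7 were tested. All 7 were called higher in untreated spheroids, beside 27.6% of all genes. With TGFB1 in spheroids 6 were called lower, beside 16.8% of all genes. Foxl2 was not called there (0.24 ± 0.11, adjusted p = 0.106, limma). The summed level of the list was 366 to 406 in untreated monolayers, 1644 to 2476 in untreated spheroids and 491 to 855 in TGFB1 spheroids. Star, the cholesterol transporter of steroid synthesis, carried most of that sum, at 1632 ± 545 in untreated spheroids, and was already at 293 ± 22.8 in untreated monolayers. Cyp11a1, the first enzyme of steroid synthesis, was at 151, 152 and 35.3 in untreated and 3.23, 0.502 and 41.1 in TGFB1 spheroids, the order of libraries seen for Sprr1a and Tspan11. Cyp19a1, the aromatase of granulosa cells, was at most 0.745 in any library. Their part in the results for the 9 genes was not tested.

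Other cell type lists moved less or otherwise. Of the ovarian surface and mesothelial markers, 1 of 11 tested was called higher and 9 lower in untreated spheroids, and 8 were called lower with TGFB1 in spheroids. Leukocyte markers summed to 18.9 to 26.5 in untreated monolayers, 79.0 to 91.2 in untreated spheroids and 73.1 to 123 in TGFB1 spheroids, mostly from Cd68 and Cd52, with 1 of 2 tested called higher in untreated spheroids and none for TGFB1 in spheroids. Ptprc, the pan-leukocyte antigen, was at most 0.124 in every monolayer and spheroid library, and Lyz2 was listed at 0 in untreated spheroids. Endothelial markers summed to 1.05 to 1.24 in untreated monolayers, 2.41 to 6.67 in untreated spheroids and 26.0 to 52.4 in TGFB1 spheroids, so the sum moved with the 9 genes between cultures and opposite to them with TGFB1. Of these 5 markers 2 were tested. Cdh5 was called higher in untreated spheroids (1.33 ± 0.34, adjusted p = 0.00614, limma) and with TGFB1 in spheroids (3.76 ± 0.34, adjusted p = 2.36e-05, limma). Pecam1 was called in neither comparison (0.46 ± 0.21, adjusted p = 0.0820, then -0.10 ± 0.21, adjusted p = 0.734, limma). Fibroblast markers summed to 1517 to 1722 in untreated monolayers and 270.0 to 285 in untreated spheroids, and to 425 to 1098 in TGFB1 spheroids.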

How the data were processed

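Poly(A)-selected RNA of 24 mOSE libraries was analysed from the authors' deposited tables. The submitters' processing notes name kallisto 0.44.0, sleuth 0.30.0 and GRCm38, with no further settings. Per the file headers the deposited signal is TPM per gene, but its columns do not reach the fixed total that TPM has, so it is treated as TPM scaled by a factor per library. The 3 tables were normalized separately and levels were not compared between them. The authors' deposited result tables list, for each gene, a q-value, a p-value and a model coefficient as a natural log, divided here by the natural log of 2. The deposited p-value of the monolayer and spheroid table covers several terms at once and was not used.

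Values were fitted as log2(scaled TPM + 1) with limma 3.58.1 (eBayes with trend) in R 4.3.3, for genes at 1 or more in at least 3 libraries of a table. The 12 monolayer and spheroid libraries shared 1 fit, and a gene was called at a two-sided Benjamini-Hochberg adjusted p under 0.05 over all genes of a comparison. The test was planned for plain TPM and kept. It was tested on simulated data with the same spread in every group and changes only in genes well above 0. That does not cover genes near 0 or groups of uneven spread. Tables were read in Python 3.11.15 (pandas 2.3.3, numpy 2.4.6). The 9 genes, the lists and the tests were chosen with earlier results of these data known. All 9 genes were named in every group. Relatives and marker lists were taken by family or cell type, the 12 relatives with the largest called change in any comparison being named (of 36 called at 2-fold or more with a group mean of at least 1), and the most alike genes by Pearson r. Genes shown beside a neighbour, and other relatives and markers printed, were chosen after their values were seen. Alternatives were another pseudocount, no filter, equal sums, a replicate block, only the libraries compared, and leaving out libraries.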

Additional observations from a re-analysis of the deposited data

Results flagged for a closer look

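Kirrel3 changed with TGFB1 in opposite directions in the 2 cultures. Spheroid cells had 4 days of pretreatment and the duration in monolayers is not clear, so culture and TGFB1 schedule cannot be told apart. In monolayers its log2 fold change was 2.23 and in spheroids -1.98, and every TGFB1 monolayer lay above every untreated monolayer while every TGFB1 spheroid lay below every untreated spheroid. The difference between the cultures was not tested, because the change in spheroids helped to choose the gene.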

How the results depend on the processing

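Counts of called genes moved by over 1.5 times in 4 comparisons. For TGFB1 in monolayers 2284 became 3659 with only the 6 libraries compared and 1234 to 1751 when a library was left out. For Snail 210 became 54 with no filter and 23 to 75 when a library was left out. For BRCA1 deletion 1828 became 1091 with no filter, 812 with equal sums and 284 to 8420 when a library was left out, the highest without BRCA1 wt 2. For TGFB1 in spheroids 4810 became 2786 with only the 6 libraries compared and 3295 to 4894 when a library was left out. Counts moved less for untreated spheroids, where 7461 became 6401 to 7839, for spheroids under TGFB1 7009 became 6063 to 6923, and for the pattern called by the test 384 became 272 to 488, each when a library was left out. The causes were not tested.

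With the replicate number as a block, 16 genes were called for Snail, 433 for BRCA1 deletion, 1994 for TGFB1 in monolayers, 7228 for untreated spheroids, 4472 for TGFB1 in spheroids, 6770 for spheroids under TGFB1 and 364 for the pattern, and Inpp5j lost its call in BRCA1 (adjusted p = 0.108, limma). Same-numbered libraries deviated from their group means with r of -0.08 to 0.33 for Snail and -0.17 to -0.05 for BRCA1. For monolayers r was -0.02 to 0.19 and for spheroids -0.32 to 0.08. Deviations from means of 3 libraries constrain these values, so they cannot decide whether same-numbered libraries were paired.

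Direction changed only for values not called. When a library was left out, log2 changes with TGFB1 in monolayers ranged from -0.12 to 0.14 for Olfm1, -0.24 to 0.18 for Sprr1a, -0.11 to 0.033 for Kctd14, -0.058 to 0.067 for Clec2h, -0.038 to 0.20 for Tspan11 and -0.023 to 0.82 for Spink4. With Snail, Spink4 ranged from -0.36 to 0.33, and was 0.11 at a pseudocount of 0.1. In BRCA1, Cst12 ranged from -0.051 (without wt 2) to 1.33. Leaving out both spheroid libraries numbered 3 was chosen after seeing the data. Unknown depth and 3 libraries a group limit what low genes can show.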
